A study of Mus musculus with 6 samples.

Results

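A set of 10 transcription factor genes of limb position, identity and skeletal growth was followed across 6 mouse RNA-seq libraries: Pitx1, Tbx3, Tbx4, Tbx5, Tbx15, Tbx18, Shox2, Prrx1, Prrx2 and Meis1. They were taken by name from a deposited gene table, in which all 10 are present once among 54532 genes. Cells described as mesenchymal stromal cells of the Prx1 lineage were grown out of collagenase-digested chips of femur and tibia. They were sorted by a green fluorescent signal, and their total RNA was sequenced as 150-base paired reads. The tested libraries came from untreated Zeb1Prx1 mice (Prx1-Cre+; ROSA-YFP; Zeb1fl/fl), in which both copies of the zinc-finger repressor gene Zeb1 are floxed, and the control libraries from untreated WT mice (Prx1-Cre+; ROSA-YFP; Zeb1wt/wt). Each genotype had 3 libraries, and both carried the Cre and the YFP reporter. The age and sex of the mice, and whether replicates were separate animals or cultures, are not given in the labels, so p-values measure the spread between these libraries, which may be technical.

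The limb buds of mammals use Pitx1, Tbx4 and Tbx5 as markers of which limb is forming: the homeobox gene Pitx1 and its target Tbx4 belong to the hindlimb, and the T-box gene Tbx5 to the forelimb. Tbx15 and Tbx18 are T-box paralogues of skeletal mesenchyme, Tbx3 acts in the anterior-posterior pattern of the limb, and Meis1 is a homeobox factor of the proximal limb. Prrx1 and Prrx2 are paired-related homeobox factors found throughout limb mesenchyme, and Shox2 is a homeobox factor needed for growth of the proximal long bones. The Prx1-Cre driver takes its name and its limb enhancer from Prrx1. The reporter thus marks descendants of cells in which that enhancer was once active, but the sorted libraries also held abundant macrophage markers (below).

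Several of these genes are paralogues with similar DNA-binding domains, so the most similar coding stretches of 2 pairs are shown first, because they set how well fragments of one gene can be told from its partner. Each is the 150-base window, one read long, in which the transcripts of a pair match at most positions without gaps (GENCODE release M21, GRCm38, 5′ to 3′ along the transcript), and capitals mark the bases at which the partners differ. The windows cover coding bases 295 to 444 of Prrx1 and 307 to 456 of Prrx2, and 484 to 633 of Tbx15 and 580 to 729 of Tbx18.
Prrx1: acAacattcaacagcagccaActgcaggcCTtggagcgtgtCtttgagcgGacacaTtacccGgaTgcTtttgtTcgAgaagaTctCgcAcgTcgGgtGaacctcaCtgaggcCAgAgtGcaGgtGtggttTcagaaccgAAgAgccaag
Prrx2: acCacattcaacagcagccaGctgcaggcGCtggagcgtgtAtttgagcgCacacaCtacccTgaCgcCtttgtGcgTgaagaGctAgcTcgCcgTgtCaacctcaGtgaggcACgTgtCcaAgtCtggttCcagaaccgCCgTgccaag
Tbx15: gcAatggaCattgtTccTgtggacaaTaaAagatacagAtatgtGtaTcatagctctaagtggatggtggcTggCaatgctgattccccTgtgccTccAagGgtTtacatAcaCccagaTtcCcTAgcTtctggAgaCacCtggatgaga
Tbx18: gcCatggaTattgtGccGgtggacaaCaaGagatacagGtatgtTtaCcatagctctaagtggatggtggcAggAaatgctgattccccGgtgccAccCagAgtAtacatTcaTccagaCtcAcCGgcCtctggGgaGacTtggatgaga

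Even in these windows the partners differed at 29 of 150 bases for Prrx1 and Prrx2 and at 26 for Tbx15 and Tbx18. The longest run that the transcripts compared shared base for base was 19 bases for the Prrx pair and 23 bases for the T-box pair, far below one read. Genes that overlap a member on the chromosome were the other source of shared fragments, since whether counting used strand is not given in the sources used here. Of 13 such genes at 7 members, Rsrc1, a splicing factor gene that overlaps Shox2 by 382 bases on the opposite strand, had 3.60 FPKM on average in Zeb1Prx1 and 3.50 FPKM in WT libraries. The other 12 were non-coding or unclassified genes that did not exceed 0.832 FPKM in any library.

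Levels are FPKM (fragments assigned to a gene, divided by its length and by the size of the library) as the authors computed them, which allows comparison between genes. Libraries held between 14724357 and 18354894 fragments assigned to genes. Zeb1, the targeted gene, had 1.92, 1.59 and 2.84 FPKM in Zeb1Prx1 libraries and 6.61, 10.3 and 7.12 FPKM in WT libraries. Its log2 difference was -1.53, and the targeted gene itself did not pass the test (limma adjusted p = 0.229). The smallest limma adjusted p of any tested gene was 0.220, so not passing is shared by every gene and does not set the members apart. The macrophage markers were abundant in all 6 sorted libraries (20 of 20 tested), with a summed level of 11589 to 23501 FPKM in Zeb1Prx1 and 14064 to 17153 FPKM in WT libraries, most of it the lysozyme gene Lyz2. Of these 20 markers, 16 had a log2 difference below 0 (median -0.30), and none passed the test. Without overlap, 7 were lower in Zeb1Prx1, among them the macrophage receptor genes Csf1r and Adgre1, where 11.8% of all tested genes were lower. The opposite direction was taken by 4 markers, among them Lyz2 (log2 difference 0.10, with overlap). The stromal list (16 of 16 tested) summed to 4518 to 8375 FPKM in Zeb1Prx1 and 3505 to 4972 FPKM in WT libraries. The chondrocyte list summed to 653, 202 and 2735 FPKM in Zeb1Prx1 libraries and 34.5, 234 and 181 FPKM in WT libraries. All 7 of its 16 genes that were tested had a log2 difference above 0 (median 2.17), and none passed the test. Of the 7, 5 were higher without overlap, where 12.6% of all tested genes were higher. Likewise 5 had an unadjusted p under 0.05 by limma, where the share of all tested genes was 15.1%. Testing needed at least 1 FPKM in at least 3 libraries, which the Zeb1Prx1 libraries alone could supply. The median gene of the list had 1.78, 0.814 and 24.9 FPKM in Zeb1Prx1 libraries and 0.163, 0.454 and 0.300 FPKM in WT libraries. The filter could thus favour genes higher in Zeb1Prx1, and these counts are not independent of it. Col2a1, the main cartilage collagen, averaged 539 FPKM in Zeb1Prx1 and 3.62 FPKM in WT. These are means over libraries that differed widely in chondrocyte markers. The sums of the list overlapped between genotypes, with Zeb1Prx1 replicate 2 (202 FPKM) below WT replicate 2 (234 FPKM) and Zeb1Prx1 replicate 3 the highest. The tendon list (5 of 6 tested) summed to 435 to 736 FPKM in Zeb1Prx1 and 105 to 963 FPKM in WT libraries. The keratinocyte list was low, with no gene tested, and summed to 8.57, 3.73 and 19.0 FPKM in Zeb1Prx1 libraries and 0.614, 0.157 and 0.282 FPKM in WT libraries, without overlap. Endothelial, muscle and neural lists summed to at most 21.8 FPKM in any library, with Myod1 and Myf5 of muscle at 0 throughout. Xist, which coats the silenced X chromosome of females, had 1.47, 0.00309 and 12.6 FPKM in Zeb1Prx1 libraries and 26.8, 40.4 and 32.9 FPKM in WT libraries. The part of cell mixture and sex in the results below was not tested, and in such bulk samples fewer cells of a type and less RNA per cell cannot be told apart.

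The members spanned a wide range of levels. Averaged over the 6 libraries, Prrx2 was highest with 67.0 FPKM, followed by Tbx15 (26.0), Prrx1 (22.2), Pitx1 (15.9), Shox2 (13.5) and Tbx18 (5.87 FPKM). Tbx4 (1.43), Tbx3 (1.21), Meis1 (0.603) and Tbx5 (0.165 FPKM) formed the low end. Prrx2 ranked first among the members in each of the 6 libraries, and it was the most abundant of the 232 genes that the deposited table assigns to the homeobox family by mean level. That family label includes the ceramide synthase genes Cers2 and Cers5, which held the next places. Tbx15 was the most abundant of the 17 T-box genes in each library. Neighbours in the order exchanged places: Tbx15 lay above Prrx1 in each Zeb1Prx1 library and below it in each WT library, Shox2 lay above Pitx1 in 1 of 3 Zeb1Prx1 libraries and in 3 of 3 WT libraries, and Tbx4 and Tbx3 had no fixed order in either genotype.

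**Figure D1:**
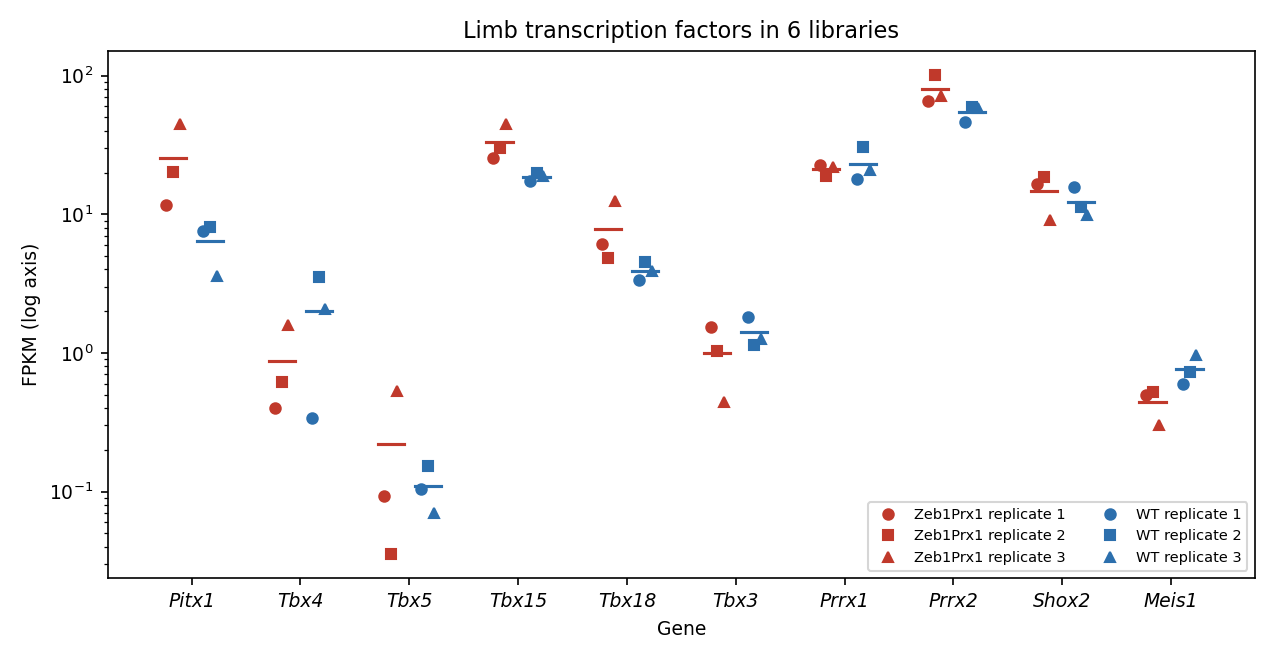
FPKM of the 10 members (log axis) in each Zeb1Prx1 library (red) and WT library (blue), with bars at the mean of 3 libraries. For Pitx1, Tbx15, Tbx18 and Prrx2 all Zeb1Prx1 points lie above all WT points, for Meis1 all lie below, and the remaining 5 overlap.

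Pitx1 had a higher level in all 3 mutant libraries, though the difference did not pass the test. Pitx1 (ENSMUSG00000021506, mm10 chr13:55825051-55836192, minus strand) had 11.6, 20.1 and 44.6 FPKM in Zeb1Prx1 libraries and 7.59, 8.08 and 3.58 FPKM in WT libraries. The lowest mutant library was above the highest control library, and Zeb1Prx1 replicate 3 was the highest. The means were 25.5 ± 17.1 FPKM in Zeb1Prx1 and 6.42 ± 2.47 FPKM in WT (SD, n = 3 each), a 3.97-fold difference, or 2.47-fold without Zeb1Prx1 replicate 3. On log2(FPKM + 1), the scale of all tests here, which understates changes of low genes, the difference was 1.70 (SE 0.49, 95% interval 0.54 to 2.85), and it did not pass over all genes (limma adjusted p = 0.275, unadjusted p = 0.0104).

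Tbx4, the hindlimb T-box gene, had a lower mean in the mutant, with overlap. Tbx4 (chr11:85886422-85916097, plus strand) had 0.403, 0.620 and 1.60 FPKM in Zeb1Prx1 libraries and 0.337, 3.56 and 2.09 FPKM in WT libraries, so the genotypes overlapped through the low WT replicate 1. These levels rest on 22, 38 and 83 fragments in Zeb1Prx1 and 21, 186 and 109 fragments in WT. The log2 difference was -0.56 (SE 0.47, 95% interval -1.66 to 0.55; limma adjusted p = 0.550). Without WT replicate 1 the mean FPKM in Zeb1Prx1 was 0.310-fold that of WT, and without WT replicate 2 it was 0.721-fold, against 0.438-fold with all libraries. Without Zeb1Prx1 replicate 3 it was 0.256-fold.

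Tbx5, the forelimb gene, was close to silent in these cells of hindlimb bones. Tbx5 (chr5:119832668-119885219, plus strand) had 0.0932, 0.0356 and 0.532 FPKM in Zeb1Prx1 libraries and 0.105, 0.153 and 0.0696 FPKM in WT libraries. Of 48 fragments in Zeb1Prx1, 38 came from replicate 3, and WT libraries held 9, 11 and 5. Tbx5 therefore stayed below the filter and was not tested. The fragment ratio, scaled by assigned fragments, was 1.83 (95% counting interval 1.11 to 3.10), and the ratio of mean FPKM was 0.589 without Zeb1Prx1 replicate 3 and 2.02 with it. Hoxc10, a posterior Hox gene of the hindlimb programme, had 14.5, 14.2 and 12.6 FPKM in Zeb1Prx1 libraries and 10.5, 9.81 and 12.2 FPKM in WT libraries.

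Tbx15 was higher in all 3 mutant libraries and did not pass the test. Tbx15 (ENSMUSG00000027868, chr3:99240381-99354259, plus strand) had 25.5, 30.3 and 44.4 FPKM in Zeb1Prx1 libraries and 17.5, 19.7 and 18.8 FPKM in WT libraries, without overlap. The WT libraries lay within a coefficient of variation of 5.99%, the smallest of any member in either genotype, against 29.4% in Zeb1Prx1. The means were 33.4 ± 9.83 FPKM in Zeb1Prx1 and 18.7 ± 1.12 FPKM in WT (SD, n = 3 each), 1.79-fold, and the log2 difference of 0.77 (SE 0.22, 95% interval 0.26 to 1.28) did not pass (limma adjusted p = 0.273, unadjusted p = 0.00936). Its antisense neighbour Gm43120, which overlaps the gene, averaged 0.537 FPKM in Zeb1Prx1 and 0.282 FPKM in WT.

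Tbx18, the paralogue that acts in mesenchyme and ureter development, was likewise higher in all 3 mutant libraries and did not pass. Tbx18 (chr9:87702800-87731260, minus strand) had 6.13, 4.87 and 12.4 FPKM in Zeb1Prx1 libraries and 3.35, 4.55 and 3.89 FPKM in WT libraries. The groups did not overlap, but Zeb1Prx1 replicate 2 lay close to WT replicate 2. Zeb1Prx1 replicate 2 had the largest FPKM sum over all genes (372566, against 289879 in WT replicate 2). With libraries scaled to the same total FPKM it lay below WT replicate 2 for Tbx18, so the groups then overlapped. The means differed 1.99-fold (1.40-fold without Zeb1Prx1 replicate 3), with a log2 difference of 0.75 (SE 0.31, 95% interval 0.02 to 1.48; limma adjusted p = 0.325, unadjusted p = 0.0446). Zeb1Prx1 replicate 3, highest for Pitx1, Tbx15 and Tbx18, also had the highest summed chondrocyte and keratinocyte markers, whose part in these differences was not tested.

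Tbx3 was low in both genotypes. Tbx3 (chr5:119670669-119684724, plus strand) had 1.53, 1.03 and 0.445 FPKM in Zeb1Prx1 libraries and 1.83, 1.14 and 1.27 FPKM in WT libraries, which overlapped. The log2 difference was -0.30 (SE 0.25, 95% interval -0.88 to 0.29; limma adjusted p = 0.549). Tbx3 and Tbx5 lie on chromosome 5 with 148 kb between them, and Tbx4 lies 44.5 kb from its neighbour Tbx2 on chromosome 11. Tbx2, a repressor closely related to Tbx3, had 0.961, 1.18 and 0.108 FPKM in Zeb1Prx1 libraries and 0.663, 0.538 and 0.718 FPKM in WT libraries, so that both Tbx2 and Tbx3 were lowest in Zeb1Prx1 replicate 3.

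Within the T-box family, Tbx15 held a larger share in the mutant libraries, a difference that was not tested. Tbx15 made up 59.9%, 72.8% and 68.8% of the FPKM sum of the 17 T-box genes in Zeb1Prx1 libraries and 55.7%, 52.7% and 55.4% in WT libraries, without overlap. Tbx18 held 14.4%, 11.7% and 19.2% in Zeb1Prx1 and 10.7%, 12.2% and 11.4% in WT. Mga, a broadly expressed T-box gene of repressive chromatin complexes, held 15.8%, 7.79% and 7.22% in Zeb1Prx1 and 22.4%, 18.9% and 19.7% in WT. The shares sum to a whole and so are not independent of each other. Mga (15340 bases) is longer than Tbx15 (3747 bases), and long genes as a class were low in Zeb1Prx1 replicate 2 (below). The part of gene length in these shares was not tested. Only 5 of the 17 family members were tested, with a median log2 difference of -0.30.

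**Figure D2:**
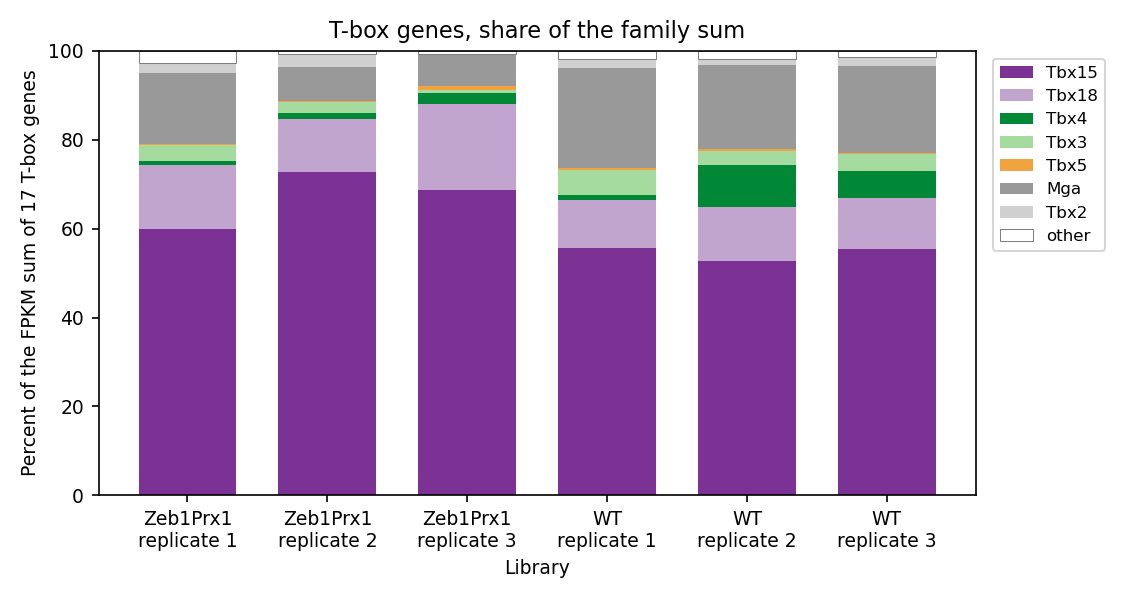
Share of the summed FPKM of 17 T-box genes (percent) held by each gene in each library, Zeb1Prx1 to the left of WT. Tbx15 takes 59.9% to 72.8% in Zeb1Prx1 libraries and 52.7% to 55.7% in WT libraries, and Tbx4 is widest in WT replicates 2 and 3.

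Of the Prrx pair, Prrx2 separated the genotypes and Prrx1 did not, and neither passed the test. Prrx2 (ENSMUSG00000039476, chr2:30834972-30881251, plus strand) had 65.1, 101 and 71.6 FPKM in Zeb1Prx1 libraries and 45.9, 59.8 and 58.2 FPKM in WT libraries, without overlap. The means were 79.4 ± 19.4 FPKM in Zeb1Prx1 and 54.6 ± 7.58 FPKM in WT (SD, n = 3 each), 1.45-fold, with a log2 difference of 0.51 (SE 0.22, 95% interval -0.00 to 1.03; limma adjusted p = 0.330). Without Zeb1Prx1 replicate 2, the highest library for Prrx2, the means differed 1.25-fold and the log2 difference was 0.33. Prrx1 (chr1:163245119-163313710, minus strand) had 22.6, 18.9 and 22.0 FPKM in Zeb1Prx1 libraries and 18.1, 30.5 and 20.9 FPKM in WT libraries. The mutant libraries lay inside the WT range, with a log2 difference of -0.09 (SE 0.21, 95% interval -0.60 to 0.41; limma adjusted p = 0.835), which was 0.11 without WT replicate 2.

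Within each library, Prrx2 was 2.87, 5.36 and 3.26 times Prrx1 in Zeb1Prx1 and 2.54, 1.96 and 2.78 times Prrx1 in WT. The ratio was 1.54-fold higher in Zeb1Prx1 by its geometric mean, without overlap (two-sided exact permutation p = 0.1, the smallest that 3 against 3 can give; adjusted p = 0.2 over 4 ratios). Zeb1Prx1 replicate 2, in which the ratio was highest, also favoured short genes as a whole. There, the median of 1681 tested genes of 1500 to 2500 bases, the class of Prrx2 (1961 bases), was 0.40 above the other libraries on the log2 scale, while the median of 1577 genes of 8000 to 14000 bases, the class of Prrx1 (11066 bases), was -0.41. Without that library the log2 difference of the ratio was 0.35 in place of 0.62.

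Shox2 overlapped between genotypes. Shox2 (chr3:66971727-66981771, minus strand) had 16.6, 18.5 and 9.02 FPKM in Zeb1Prx1 libraries and 15.7, 11.3 and 9.95 FPKM in WT libraries. Zeb1Prx1 replicate 3, the highest library for Pitx1 and Tbx18, was the lowest for Shox2. The log2 difference was 0.21 (SE 0.29, 95% interval -0.48 to 0.89; limma adjusted p = 0.733). The ratio of Shox2 to Prrx1 was 0.735, 0.977 and 0.411 in Zeb1Prx1 and 0.872, 0.368 and 0.475 in WT (exact permutation p = 0.7).

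Meis1 was the 1 member that lay lower in each mutant library. Meis1 (ENSMUSG00000020160, chr11:18879817-19018985, minus strand) had 0.496, 0.522 and 0.305 FPKM in Zeb1Prx1 libraries and 0.602, 0.729 and 0.965 FPKM in WT libraries. No library reached 1 FPKM, so Meis1 was not tested. Meis1 (10532 bases) is in the length class of 8000 to 14000 bases. Against the other libraries, the log2 median of that class was 0.04, -0.41 and -0.07 in Zeb1Prx1 replicates 1, 2 and 3. In WT replicates 1, 2 and 3 it was 0.05, 0.14 and 0.09. The part of gene length in the lower Meis1 values was not tested. It had 84, 99 and 49 fragments in Zeb1Prx1 and 116, 118 and 156 fragments in WT, a scaled ratio of 0.567 (95% counting interval 0.480 to 0.669, which covers counting error only). Without the filter on low values, its log2 difference was -0.29 (limma adjusted p = 0.522).

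Across the members, limma called 0 of 8 tested genes, as it called 0% of all 12534 genes tested. At an unadjusted p under 0.05 there were 3 of 8 (Pitx1, Tbx15 and Tbx18), where the share of all tested genes was 15.1%. The genotypes did not overlap for 4 of the 8, all of them higher in Zeb1Prx1, where 24.4% of all tested genes did not overlap in either direction and 12.6% were higher. The log2 difference was above 0 for 5 of 8, and its median was 0.36, beside 0.02 over all tested genes. When each library was scaled to the same total FPKM, all genes had a median of -0.12, and the differences of Pitx1, Tbx15, Tbx18 and Prrx2 were 1.54, 0.61, 0.61 and 0.35. Tbx18 then overlapped between the genotypes. Library weights, which gave Zeb1Prx1 replicate 3 the most weight (2.82) and replicate 2 the least (0.226), put Pitx1 and Tbx15 past the threshold (limma adjusted p = 0.0498 and 0.0487). That weighted fit called 447 of all 12534 genes tested. With the mean of the macrophage markers as a covariate the log2 difference was 0.27 for Tbx18 and -0.17 for Prrx1, and it was 0.88 for Prrx2 (limma adjusted p = 0.110) and 0.53 for Shox2. The same fit gave 1.37 for Pitx1 and 0.63 for Tbx15, and called no gene. With the stromal markers as the covariate the differences of Tbx4, Tbx3, Shox2 and Prrx1 were -0.99, -0.14, 0.47 and -0.23. For Pitx1, Tbx15, Tbx18 and Prrx2 they were 1.62, 0.66, 0.51 and 0.51. Over the alternatives tried, the adjusted p ranged up to 0.543 for Pitx1 and for Tbx15. Members at an unadjusted limma p under 0.05 ranged from 1, with the macrophage covariate, to 4, with library weights among others. In those fits 3478 and 3866 of the 12534 genes tested had such a p.

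**Figure D3:**
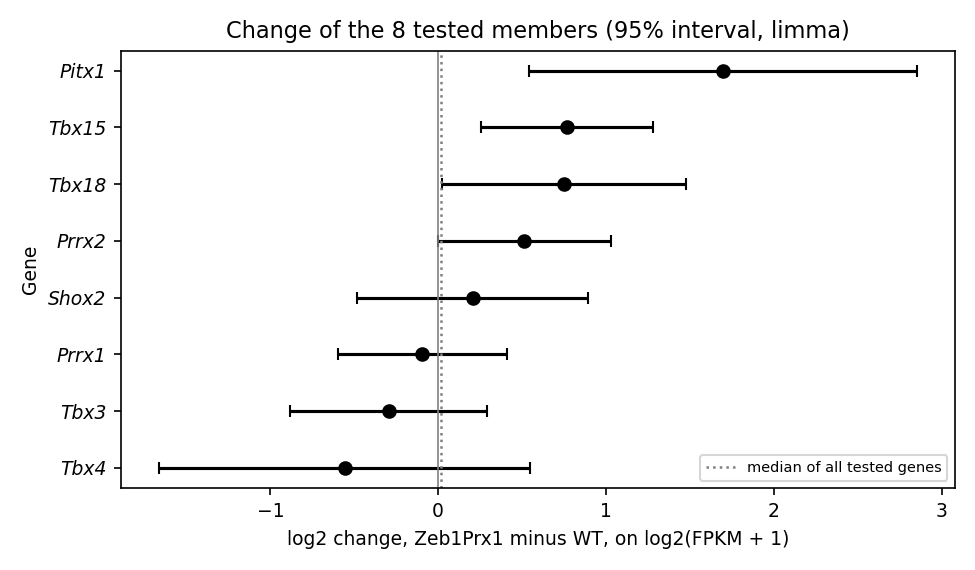
Log2 difference of the 8 tested members, Zeb1Prx1 minus WT on log2(FPKM + 1), with 95% intervals from limma and a dotted line at the median of all tested genes (0.02). The intervals of Pitx1, Tbx15 and Tbx18 lie above 0, and those of Prrx2, Shox2, Prrx1, Tbx3 and Tbx4 span it.

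Set against Pitx1 in the same library, Tbx4 showed the widest contrast between members. The ratio of Tbx4 to Pitx1 was 0.0346, 0.0308 and 0.0358 in Zeb1Prx1 libraries and 0.0444, 0.440 and 0.583 in WT libraries. The mutant libraries were close to each other and all lower than the controls, but WT replicate 1 lay nearer to them than to the other controls. The log2 difference was -2.74, between -3.91 and -2.05 when each library was left out in turn (two-sided exact permutation p = 0.1, the smallest possible; adjusted p = 0.2 over 4 ratios). The ratio of Tbx18 to Tbx15 was 0.240, 0.161 and 0.279 in Zeb1Prx1 and 0.191, 0.231 and 0.207 in WT, with overlap (exact permutation p = 0.8).

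**Figure D4:**
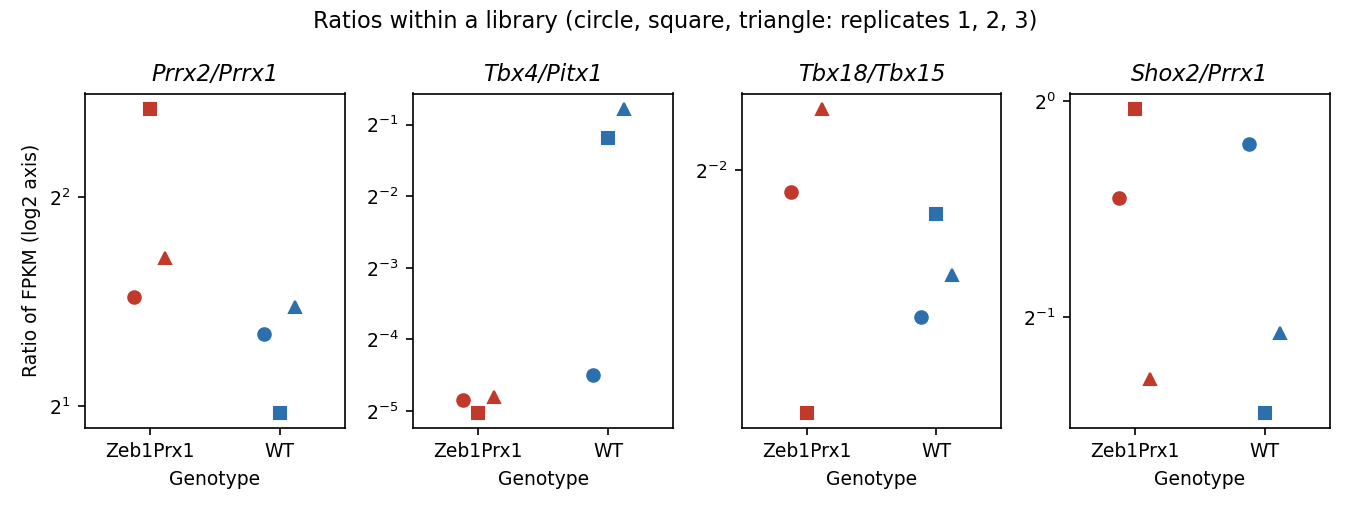
Ratio of FPKM between 2 members within each library (log2 axis), Zeb1Prx1 in red to the left of WT in blue, with marker shapes for replicates 1, 2 and 3. For Prrx2/Prrx1 all Zeb1Prx1 points lie above all WT points, for Tbx4/Pitx1 all lie below, and the other ratios overlap.

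Other genes of limb patterning gave no call by limma in any of 6 lists. Of the partners of the hindlimb and forelimb programmes, 6 of 12 were tested and 5 lay above 0, with a median log2 difference of 0.18. Hoxc10 led them with 0.32 (SE 0.14, limma adjusted p = 0.336), and Hoxc9 and Hoxc4 followed with 0.28 and 0.23. Of the TALE homeobox factors, the class of Meis1 that includes its Pbx partners, 6 of 10 were tested and all 6 lay below 0 (median -0.16). Pbx3 had 2.11, 2.23 and 2.30 FPKM in Zeb1Prx1 libraries and 2.83, 2.46 and 2.87 FPKM in WT libraries, without overlap, and Tgif1 and Pknox1 had log2 differences of -0.37 and -0.23.

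Anterior-posterior factors, which pattern the limb from thumb to little finger, had 6 of 14 tested members, evenly divided around 0 with a median of -0.07. Ets2 (-0.47), Irx3 (0.31) and Irx5 (0.49) had the smallest unadjusted p among them. The signal gene Shh was at 0 in all libraries. Of the dorsal-ventral factors, Ldb1, a cofactor of LIM homeobox proteins, was the 1 of 6 tested, with 29.0 ± 3.62 FPKM in Zeb1Prx1 and 25.5 ± 1.69 FPKM in WT (SD, n = 3 each).

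Of the Msx, Dlx and other mesenchymal homeobox factors, 5 of 13 in the table were tested (median 0.37). Dlx5, a homeobox activator of bone formation, had 10.0, 5.12 and 4.66 FPKM in Zeb1Prx1 libraries and 3.16, 2.53 and 2.68 FPKM in WT libraries, without overlap, with a log2 difference of 0.94 (SE 0.26, limma adjusted p = 0.273). Emx2 and Nkx3-2 had differences of -0.37 and 0.37. Among the remaining T-box genes Mga was the 1 tested (-0.48, SE 0.22, limma adjusted p = 0.357), and 4 of 12 had no fragment in any library.

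Promoters were searched for E-boxes of the kind Zeb1 binds. RefSeq windows (GRCm38.p6, 250 bases before to 50 after the start) were matched for 6 of the 10 members (Tbx4, Tbx18, Shox2, Prrx1, Prrx2 and Meis1). Neither CAGGTG nor CAGGTA occurred on either strand in any of the 6, where 29.5% of all 32851 promoter windows hold at least one of them. The general core CANNTG, which covers CAGGTG but not CAGGTA, was added after those counts were known. It occurred 6 times in the window of Tbx4, once each in those of Tbx18 and Meis1, and not in the remaining 3. Of all windows, 72.3% hold it. The windows of the 3 matched members whose genotypes did not overlap are shown, with CANNTG in capitals: Tbx18 (chr9:87731211-87731510, minus strand), Prrx2 (chr2:30845117-30845416, plus strand) and Meis1 (chr11:19018920-19019219, minus strand).
Tbx18: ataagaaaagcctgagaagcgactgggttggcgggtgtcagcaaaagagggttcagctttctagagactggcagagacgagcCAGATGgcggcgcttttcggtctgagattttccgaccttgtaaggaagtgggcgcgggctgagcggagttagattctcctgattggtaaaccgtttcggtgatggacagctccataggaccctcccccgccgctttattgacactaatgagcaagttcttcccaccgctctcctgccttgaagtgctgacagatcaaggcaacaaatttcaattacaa
Prrx2: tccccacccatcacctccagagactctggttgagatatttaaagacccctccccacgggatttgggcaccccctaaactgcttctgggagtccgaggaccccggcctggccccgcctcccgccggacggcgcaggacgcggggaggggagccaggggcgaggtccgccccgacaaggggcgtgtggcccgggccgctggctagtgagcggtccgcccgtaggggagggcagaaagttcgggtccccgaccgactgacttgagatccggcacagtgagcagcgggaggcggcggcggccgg
Meis1: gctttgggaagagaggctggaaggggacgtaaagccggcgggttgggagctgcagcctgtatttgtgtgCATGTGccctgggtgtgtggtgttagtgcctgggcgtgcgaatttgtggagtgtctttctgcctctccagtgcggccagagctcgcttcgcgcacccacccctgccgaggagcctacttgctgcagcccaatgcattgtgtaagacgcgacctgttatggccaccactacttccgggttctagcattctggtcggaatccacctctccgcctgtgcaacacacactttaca
These matches describe letters in short windows and say nothing of binding there or elsewhere.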

How the data were processed

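The deposited values are FPKM as the authors computed them for each gene and library, beside each gene's name, position and length. Per the submitters' processing notes, reads were placed on mm10, and all 10 members have identical coordinates in GENCODE release M21. No aligner, counter or strand setting is given in the sources used here. FPKM times gene length gave whole fragment numbers for 127408 of 127408 non-zero values (100%, relative tolerance 1e-06), summing to 14724357 to 18354894 per library. Counting intervals cover counting error only.

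Zeb1Prx1 was compared with WT by limma 3.58.1 (R 4.3.3) with an intensity trend on log2(FPKM + 1), without a block. Genes needed at least 1 FPKM in at least 3 of 6 libraries, and p-values were adjusted (Benjamini-Hochberg, threshold 0.05) over the 12534 genes tested. The fit was tested on simulated data in which every gene had the same spread and libraries did not differ in quality or cell mixture. That check does not cover such differences between the real libraries. Voom on the recovered fragments called 0 genes (1935 at an unadjusted p under 0.05). Ratios were compared by exact permutation (scipy 1.17.1).

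All members, Zeb1, genes overlapping a member, chromosomal T-box neighbours and, per further limb list, the 3 tested genes with the smallest unadjusted p were named. Xist, Shh, Myod1, Myf5, Lyz2, Csf1r, Adgre1, Col2a1 and the coincident order of members were named after their values were seen. Members and lists were chosen with earlier results of these data known.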

Additional observations from a re-analysis of the deposited data

How the results depend on the processing

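Of 286 values recomputed under alternatives, 269 were labelled unchanged, by a rule that differed with the kind of value. Tested differences had to keep their direction and side of the threshold, and ratios within libraries their direction alone. Counts had to stay equal or within a set fold, so many of them stayed at 0. Untested fragment ratios had to keep their direction and move by less than the spread between replicates. Library weights called 447 genes, 2 of them members, with log2 differences of 2.37 for Pitx1 and 1.02 for Tbx15, and turned Shox2 to -0.12. Left-out libraries gave 0 to 2 genes and 0 members. The log2 ratio of scaled fragments of Tbx5 was 0.87 with all libraries and ranged from -0.85 to 1.44, the lowest being without Zeb1Prx1 replicate 3. Ratios of mean FPKM for Tbx5 and Meis1 were added after seeing the data. Prrx1 ranged from -0.25 to 0.11 when libraries were left out, the highest being without WT replicate 2. The log2 difference of Tbx18/Tbx15 was 0.081, with -0.019 from FPKM + 1, and ranged from -0.087 to 0.31 with libraries left out, the lowest being without Zeb1Prx1 replicate 3. The cause was not tested. Genes at an unadjusted p under 0.05 numbered 3866 with library weights, 3478 with the macrophage covariate and 1133 to 2887 with libraries left out. The replicate block called 0 genes (Pitx1 1.70, adjusted p = 0.443; 1347 genes at an unadjusted p under 0.05, against 1897 without it). Same-numbered libraries did not deviate together (correlations 0.03, -0.41 and 0.08), and differently numbered ones ranged from -0.48 to 0.46. With so few libraries per genotype these correlations cannot decide whether the samples were paired, and the labels do not say. The values under a mean FPKM of at least 5 leave out Tbx3 and Tbx4. Depth limits Tbx5, with as few as 3 fragments in a library.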

Other observations

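Zeb1Prx1 replicate 3 and WT replicate 2 were each the highest of their genotype for several patterning and connective tissue genes, named here after their values were seen. Barx1, a homeobox gene of joint and stomach mesenchyme, had 0.133, 2.30 and 64.1 FPKM in Zeb1Prx1 libraries and 0, 23.7 and 0 FPKM in WT libraries. Hand2, a basic helix-loop-helix factor of the posterior limb, had 0.0529, 0 and 1.64 FPKM in Zeb1Prx1 and 0.116, 4.81 and 0 FPKM in WT. Pax9, a paired-box factor of the anterior limb, had 0.726, 0.593 and 4.23 FPKM in Zeb1Prx1 and 0.227, 3.85 and 0.296 FPKM in WT. The proteoglycan gene Dcn had 47.1, 31.1 and 576 FPKM in Zeb1Prx1 and 3.30, 204 and 30.2 FPKM in WT. Tbx4 was highest within its genotype in the same 2 libraries, while Tbx3 was lowest in both.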
